A study of Mus musculus with 18 samples.

Results

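The genes described here are 7 genes named for the choroid plexus whose levels differed widely between parallel hippocampal cultures: Ttr, Enpp2, Sostdc1, Trpm3, Car12, Ptgds and Calb1. They were taken by gene name from a table of 12012 genes, and all 7 have a row in it. The genes were chosen by their spread between the libraries of a group and by their shared movement, so both are given as descriptions, without a test.

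The study sequenced poly-A RNA from primary cultures of mouse hippocampal cells that carry or lack Fibcd1, a receptor for glycosaminoglycans and chitin. Cells were taken from hippocampi of E18.5 embryos and were plated with or without a coating of chondroitin sulphate proteoglycans (CSPGs), sugar-bearing proteins of the brain's extracellular matrix. The libraries described here are the replicates A to D of WT_CSPG and the replicates A to D of KO_CSPG. WT_CSPG cultures carry wild-type Fibcd1 and KO_CSPG cultures are fibcd1 -/-, from a mouse line bred on C57BL/6J, and both groups grew on the CSPG coating. Replicate E of WT_CSPG and the 9 libraries without CSPGs (5 WT and 4 KO) were not analysed here. The cultures were harvested at DIV3 (days in vitro), or at DIV2 by a figure legend. The day, litter and sex behind a single library are not given, so none of them could be separated from the differences between libraries.

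The choroid plexus is a folded epithelium that hangs in the ventricles of the brain and secretes cerebrospinal fluid. In the embryo the plexus of the lateral ventricle grows from the edge of the dorsal telencephalon, next to the cortical hem and the prospective hippocampus. Its epithelial cells release transthyretin in large amounts and move ions, bicarbonate and water into the fluid. In a bulk library, fewer cells of a type and less RNA per cell cannot be told apart.

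The values are normalised counts, which the authors made by dividing the reads of each gene by the size factor of the library. The libraries held 10099564 to 11174615 reads over the genes of the table in WT_CSPG and 10541445 to 11647202 in KO_CSPG. No gene of the table had a mean under 40.7 normalised counts. Fibcd1 itself had 54.3, 70.4, 60.1 and 182 normalised counts in WT_CSPG libraries A to D and 0.970, 0.932, 7.16 and 4.74 in KO_CSPG libraries A to D, so every library matched its genotype label. WT_CSPG library D, which was highest for most of the 7 genes, was also highest for Fibcd1.

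The label of the set was checked against a list of 32 genes of the choroid plexus epithelium, of which 11 are in the table. Ttr, Enpp2, Sostdc1, Trpm3 and Car12 are 5 of these 11. The other 21 have no row, and they include Folr1, Kl, Aqp1, Clic6, Kcne2, Otx2 and Cldn2, which are among the defining genes of this epithelium. Because the table starts at a mean of 40.7 normalised counts, a missing row does not say whether the gene was used at a low level. Ptgds stands in the list for leptomeninges, and Calb1 in those for granule neurons and for interneurons, so neither is specific to the choroid plexus. The 7 genes are therefore called Ttr and the 6 other genes below. Of the labelled cell type, neurons, all 11 listed genes of dentate granule and CA neurons were in the table, and their sum without Calb1 was between 39910 and 44637 normalised counts in the 8 libraries. All 10 listed genes of astrocytes and radial glia were in the table too, with sums between 49504 and 59223.

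Ttr encodes transthyretin, which carries thyroid hormone and, with its binding protein, retinol in the cerebrospinal fluid. Ttr had 331, 953, 11.6 and 3529 normalised counts in WT_CSPG libraries A, B, C and D. In KO_CSPG libraries A, B, C and D it had 243, 115, 5.11 and 21.8. The highest library was thus D in WT_CSPG and A in KO_CSPG, the lowest was C in both, and the groups overlapped. These values rest on 317, 880, 12 and 3463 reads in WT_CSPG and on 251, 123, 5 and 23 reads in KO_CSPG. The highest WT_CSPG library exceeded the lowest 303-fold (95% interval 173 to 587) and the highest KO_CSPG library exceeded the lowest 47.6-fold (95% interval 20.1 to 148). Both intervals, like all those given for ratios of 2 libraries, cover counting error only. They compare the highest with the lowest library, picked after seeing the values, so they are no test of a range. The SD of log2(value + 1) of Ttr was 3.47 in WT_CSPG and 2.39 in KO_CSPG, rank 1 of 12012 in both. Without WT_CSPG library C the ratio in WT_CSPG was 10.7, and without library D it was 81.9. Without KO_CSPG library C the ratio in KO_CSPG was 11.2, and without library A it was 22.4.

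**Figure D1:**
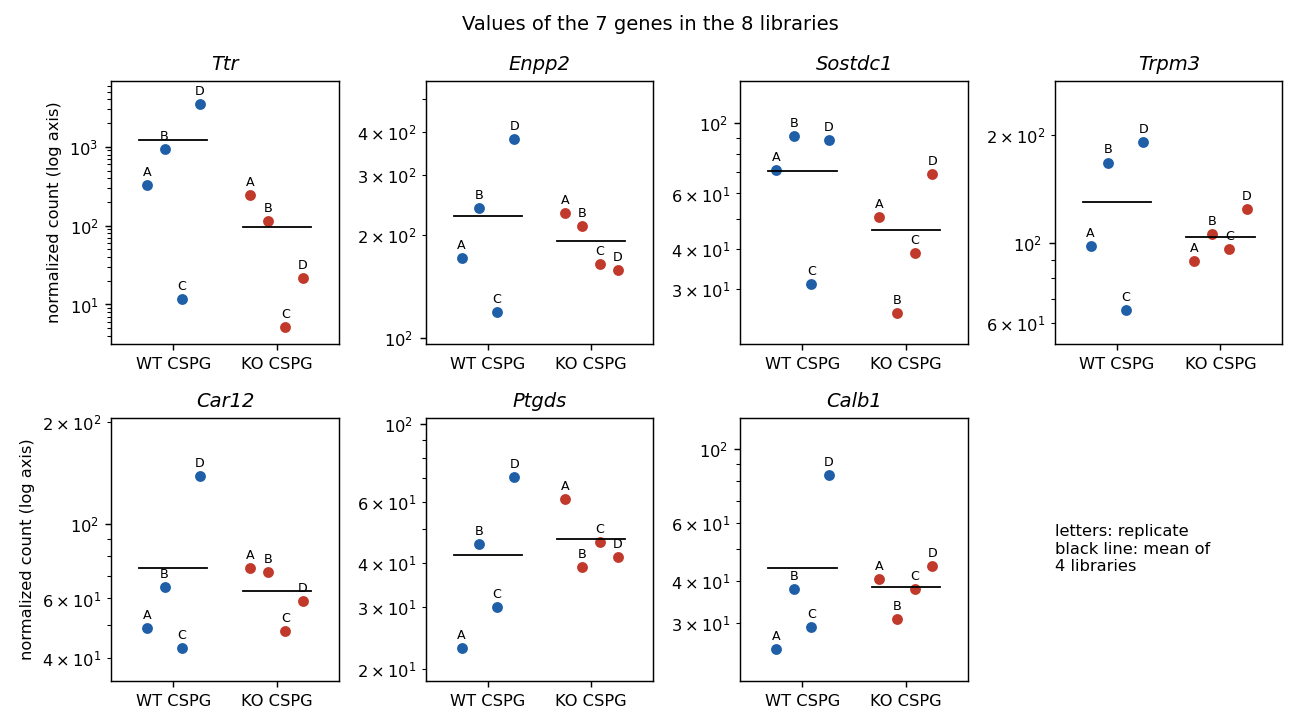
Normalised counts (log axis, own scale in each panel) of the 7 genes in each library, with WT_CSPG in blue, KO_CSPG in red, the replicate letter above each point and the mean of the 4 libraries as a black line. Ttr runs from 11.6 to 3529 in WT_CSPG and from 5.11 to 243 in KO_CSPG, while the other panels span far smaller ranges, and the groups overlap in all 7 panels.

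Enpp2 encodes autotaxin, the secreted enzyme that makes lysophosphatidic acid. It had 171, 239, 119 and 381 normalised counts in WT_CSPG libraries A to D, and 233, 213, 165 and 158 in KO_CSPG libraries A to D. The WT_CSPG libraries stood in the same order as for Ttr, with D highest and C lowest, and all KO_CSPG values lay inside the WT_CSPG range. The highest WT_CSPG library exceeded the lowest 3.20-fold (95% interval 2.60 to 3.95), and the KO_CSPG ratio was 1.47 (95% interval 1.20 to 1.80). Without library D the WT_CSPG ratio was 2.01.

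Sostdc1 encodes a secreted antagonist of BMP and Wnt signals. It had 71.1, 91.0, 31.0 and 88.7 normalised counts in WT_CSPG libraries A to D, and 50.4, 25.2, 38.8 and 69.2 in KO_CSPG libraries A to D. In WT_CSPG one library, C, stood below 3 similar ones, and without it the ratio of highest to lowest fell from 2.93 to 1.28. Sostdc1 was the only one of the 6 other genes with a ratio over 2 in KO_CSPG, at 2.75 (95% interval 1.75 to 4.45), and there library B was lowest, with a ratio of 1.78 without it.

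Trpm3 encodes a cation channel of the TRPM family. It had 98.2, 168, 65.0 and 192 normalised counts in WT_CSPG libraries A to D, and 89.2, 106, 96.1 and 124 in KO_CSPG libraries A to D. Libraries B and D were high in WT_CSPG and C was low, a 2.95-fold range (95% interval 2.22 to 3.96) that was 1.95-fold without C. In KO_CSPG the ratio was 1.39 (95% interval 1.06 to 1.84).

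Car12 encodes a carbonic anhydrase of the cell surface, which interconverts carbon dioxide and bicarbonate. It had 49.1, 65.0, 42.7 and 139 normalised counts in WT_CSPG libraries A to D, and 73.7, 71.8, 48.0 and 58.8 in KO_CSPG libraries A to D. Library D alone made most of the range in WT_CSPG, since the ratio of highest to lowest was 3.25 with it and 1.52 without it. In KO_CSPG the order of the libraries was the same as for Ttr, A, B, D and C from high to low, and the ratio was 1.53.

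Ptgds encodes lipocalin-type prostaglandin D synthase, an enzyme and carrier protein abundant in the meninges and the cerebrospinal fluid. It had 23.0, 45.5, 30.1 and 70.3 normalised counts in WT_CSPG libraries A to D, and 61.1, 39.2, 46.0 and 41.7 in KO_CSPG libraries A to D. Its lowest WT_CSPG library was A, not C. The ratio of highest to lowest was 3.06 in WT_CSPG (95% interval 1.87 to 5.19) and 1.56 in KO_CSPG (95% interval 1.04 to 2.36). Without library D the WT_CSPG ratio was 1.98. The mean of Ptgds over the 8 libraries was 44.6, near the lowest mean of the table, 40.7. Its row may therefore rest on the high value of library D.

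Calb1 encodes calbindin, a calcium buffer of many neurons. It had 25.1, 37.9, 29.1 and 83.6 normalised counts in WT_CSPG libraries A to D, and 40.7, 30.8, 37.8 and 44.6 in KO_CSPG libraries A to D. In WT_CSPG library D stood apart from the rest, with a ratio of highest to lowest of 3.33 with D and 1.51 without it. The mean of Calb1 over the 8 libraries was 41.2, close to the lowest mean of the table, 40.7. Its row in the table may therefore rest on the high value of library D. In KO_CSPG the ratio was 1.45, with a 95% interval of 0.908 to 2.33.

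The spread of the 6 other genes was of one size in WT_CSPG and smaller in KO_CSPG. The SD of log2(value + 1) in WT_CSPG was 0.71 for Enpp2, 0.71 for Sostdc1, 0.71 for Trpm3, 0.75 for Car12, 0.69 for Ptgds and 0.76 for Calb1, with ranks between 8 and 17 of 12012. Over all genes the median SD in WT_CSPG was 0.08 and the 99th percentile was 0.37. In KO_CSPG the SD was 0.60 for Sostdc1 (rank 9) and between 0.20 and 0.28 for the other 5, with ranks between 249 and 838. The median over all genes in KO_CSPG was 0.08 and the 99th percentile was 0.33, so only Ttr and Sostdc1 lay above that percentile in both groups. The SD was larger in WT_CSPG than in KO_CSPG for 7 of the 7 genes, which holds for 52.7% of all genes. It was at least 2 times as large for 5 of the 7, and for 15.9% of all genes. Both counts come from the values that chose the genes.

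The spread was also set against counting error, as the chi-square of the reads of 1 group per degree of freedom, which is near 1 where libraries differ by counting alone. The median over all genes was 1.29 in each group. In WT_CSPG it was 2099 for Ttr, 56.5 for Enpp2, and between 10.2 and 26.7 for the other 5 genes. In KO_CSPG it was 126 for Ttr, 7.09 for Enpp2 and 8.01 for Sostdc1, and 2.31 for Trpm3, 2.31 for Car12, 2.14 for Ptgds and 0.939 for Calb1. These values describe genes chosen by their spread, with no test, and in KO_CSPG they were highest for Ttr, Sostdc1 and Enpp2.

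**Figure D2:**
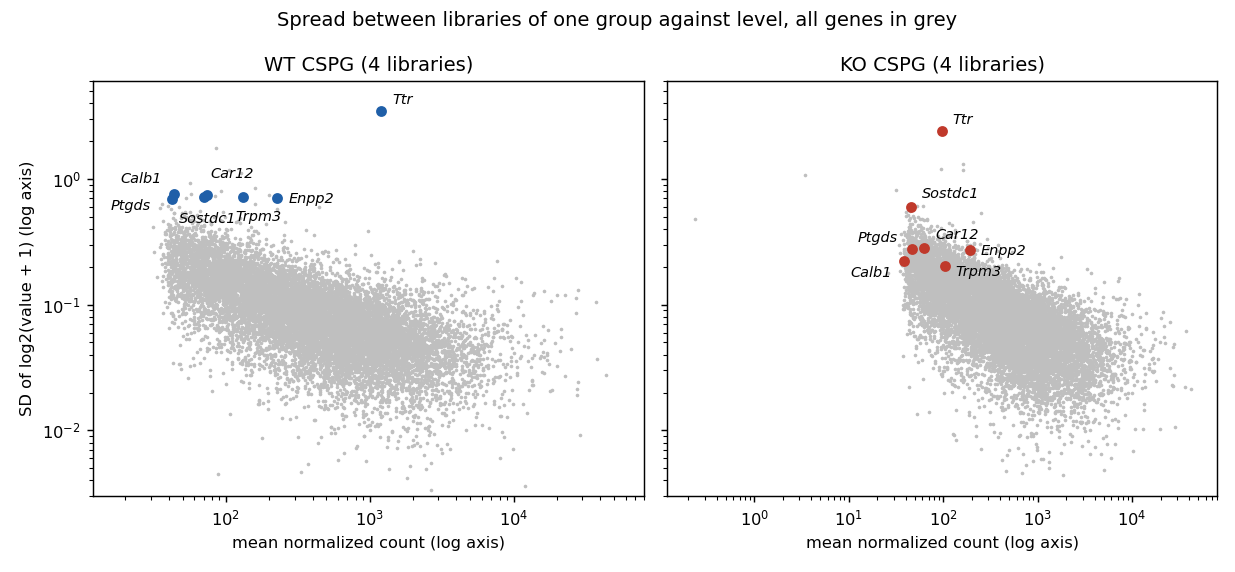
SD of log2(value + 1) over the 4 libraries of a group (log axis) against the mean normalised count (log axis) for all 12012 genes in grey, with the 7 genes coloured, in WT_CSPG on the left and KO_CSPG on the right. Ttr has the largest SD in both groups, the 6 other genes lie at 0.69 to 0.76 in WT_CSPG above most genes of their level, and in KO_CSPG all but Sostdc1 lie at 0.20 to 0.28.

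Levels can be compared between genes only per length, and Ttr has the shortest transcript model of the set, at 1219 bases. Per kilobase, the mean level of Ttr in WT_CSPG was 990 normalised counts, against 65.6 for Enpp2, 40.2 for Sostdc1, 25.6 for Ptgds, 16.2 for Trpm3, 9.72 for Car12 and 9.06 for Calb1. The place of Ttr in this order changed with the library. In WT_CSPG library D it stood at 2895 per kilobase, 26.4 times Enpp2. In WT_CSPG library C it stood at 9.55 per kilobase, 0.278 times Enpp2, and in KO_CSPG library C at 4.19 per kilobase, 0.0885 times Enpp2. The ratio of Ttr to Enpp2 ran with the level of Ttr in both groups. This largely follows from their ranges, 303-fold for Ttr and 3.20-fold for Enpp2 in WT_CSPG, and 47.6-fold and 1.47-fold in KO_CSPG. From WT_CSPG library C to library D, Ttr gained 3517 normalised counts, Enpp2 262, Trpm3 127, Car12 95.9, Sostdc1 57.6, Calb1 54.5 and Ptgds 40.3.

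The question the set was made for is whether the genes rise and fall together within a group. In WT_CSPG they did so largely. The order from high to low was D, B, A, C for Ttr, Enpp2, Trpm3 and Car12, an order that 4.20% of all genes show. It was D, B, C, A for Ptgds and Calb1, with A and C exchanged, and B, D, A, C for Sostdc1. Library D was highest for 6 of the 7 genes, and it is highest for 24.8% of all genes. Library C was lowest for 5 of the 7, and it is lowest for 23.6% of all genes. Measured against the mean of the 3 other WT_CSPG libraries, library D was highest of all 12012 genes for Ttr, and Calb1 ranked 3, Car12 4, Enpp2 8, Ptgds 9, Trpm3 25 and Sostdc1 147. The ranks of Calb1 and Ptgds are limited by their means, which lie near the lowest of the table. Measured the same way, library C was lowest of all genes for Ttr, and Sostdc1 ranked 9 from the lowest, Trpm3 11, Enpp2 13, Car12 16, Calb1 21 and Ptgds 46.

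In KO_CSPG the 7 genes split. The order was A, B, D, C for Ttr and Car12 and A, B, C, D for Enpp2, so these 3 shared A and B above C and D. Ptgds was highest in A as well but lowest in B (A, C, D, B). Sostdc1 and Calb1 had the order D, A, C, B, and Trpm3 had D, B, C, A, so that library A, in which Ttr was highest, was the lowest for Trpm3. Library A was highest for 4 of the 7 genes, against 23.2% of all genes, and library C was lowest for 2 of the 7, against 25.5%. Ttr and Car12 were lowest in library C in both groups, as were 7.41% of all genes. Relative to the 3 other KO_CSPG libraries, library A was higher by 2.34 on the log2 scale for Ttr, 0.52 for Ptgds, 0.38 for Enpp2, 0.30 for Car12, 0.18 for Sostdc1 and 0.11 for Calb1, and Trpm3 was lower there, at -0.28. In KO_CSPG the chi-square per degree of freedom of Trpm3, Car12, Ptgds and Calb1 was at most 2.31, so counting error can change the order of their libraries.

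**Figure D3:**
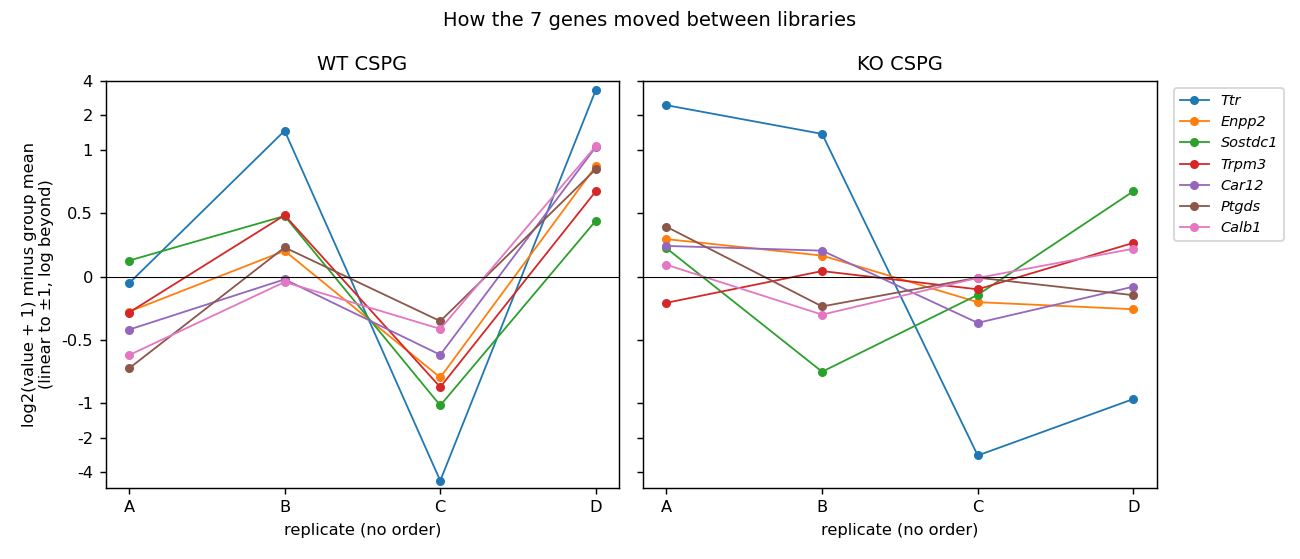
Deviation of log2(value + 1) from the group mean for each gene and library, in WT_CSPG on the left and KO_CSPG on the right; the axis is linear between -1 and 1 and logarithmic beyond, and lines only join the points of a gene because replicates have no order. In WT_CSPG all 7 lines lie below 0 in C and above 0 in D, and in KO_CSPG the lines cross, with Ttr high in A and B while Sostdc1 is low in B.

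With the group means removed, Pearson's r between each pair of the 7 genes was computed over the 8 libraries, whose points share a library's depth and composition. All 21 pairs had r above 0, from 0.42 to 0.95 with a median of 0.73. These values describe the genes as they were picked. For each pair, the 2 libraries in which the gene named first lay farthest from its own median were then left out. Genes were named in the order of the opening list, so the choice depends on that order. Leaving them out lowered the median r to 0.42 and left 19 pairs above 0, with a lowest value of -0.20. The libraries left out always included WT_CSPG library C or D, so the relation rested in part on these libraries. Ttr and Enpp2 kept it, with r = 0.92 and Spearman's rho = 0.90 over 8 libraries and r = 0.95 without WT_CSPG library C and KO_CSPG library C. Enpp2 and Car12 had r = 0.95 and rho = 0.95, and r = 0.85 without WT_CSPG libraries C and D. Ttr and Car12 had r = 0.84 and rho = 0.90, and r = 0.82 without both libraries C. Ttr and Sostdc1 did not keep it, with r = 0.55 and rho = 0.48 over 8 libraries and r = -0.12 without both libraries C. Trpm3 had r = 0.72 and rho = 0.60 to Ttr and r = 0.34 without both libraries C. Ptgds had r = 0.61 and rho = 0.71 to Ttr and r = 0.81 without both libraries C, and Calb1 had r = 0.52 and rho = 0.48 to Ttr and r = 0.58 without them. Ptgds and Calb1 had r = 0.90 and rho = 0.83 with each other, and r = 0.59 without WT_CSPG libraries A and D.

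With only 8 points, many genes follow Ttr by this measure. The median r to Ttr over all genes was -0.01. An r to Ttr as high as that of Enpp2 was held by 0.250% of genes, as high as that of Car12 by 1.09%, and as high as that of Trpm3 by 4.41%. For Ptgds the share was 8.77%, for Sostdc1 12.01% and for Calb1 13.2%. Over all 8 libraries Enpp2 and Car12 lay closest to Ttr in pattern, and Sostdc1 and Calb1 farthest. This order changed without both libraries C, where Ptgds (r = 0.81) lay near Car12 (r = 0.82) and Calb1 (r = 0.58) lay nearer to Ttr than Trpm3 did (r = 0.34). The genes most like Ttr outside the set were Slc16a7 (r = 0.97), Cxcl12 (r = 0.96), Lhfpl3 (r = 0.96), Ost4 (r = 0.95), Adamts2 (r = 0.95), Gnaq (r = 0.95), Samd8 (r = 0.95), Ankrd52 (r = 0.95), Gpr17 (r = 0.95) and Traip (r = 0.94). The most opposed were Rgs8 (r = -0.97), Rabggtb (r = -0.96), Gtf2b (r = -0.96), Mvb12a (r = -0.95) and Dlst (r = -0.95). Most of these genes moved little: the SD of log2(value + 1) around the group means was 0.06 for Slc16a7 and 0.33 for Cxcl12, against 2.98 for Ttr. Gpr17, a receptor of oligodendrocyte precursors, moved most among them, with an SD of 0.57.

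Of the 6 listed choroid plexus genes outside the set, Igf2, Sulf1 and Ace varied and Igfbp2, Cab39l and 1500015O10Rik hardly did. Igf2, the insulin-like growth factor made by choroid plexus, meninges and mesenchyme, had 34.5, 61.7, 23.3 and 105 normalised counts in WT_CSPG libraries A to D and 39.8, 53.1, 16.4 and 18.0 in KO_CSPG. Sulf1, an extracellular sulphatase of heparan sulphate, had 126, 194, 65.0 and 252 in WT_CSPG and 62.1, 79.3, 45.0 and 52.1 in KO_CSPG. Both showed the WT_CSPG order of Ttr, D, B, A, C, and in KO_CSPG both were highest in B. Their r to Ttr was 0.91 for Igf2 and 0.93 for Sulf1. Igf2 had a mean of 44.0 over the 8 libraries, near the lowest mean of the table, so its row may rest on WT_CSPG library D. Ace, angiotensin-converting enzyme, was high in WT_CSPG library D alone, at 159 against 75.2 to 84.5 in A to C. The SD of log2(value + 1) around the group means was 0.08 for Igfbp2, 0.09 for Cab39l and 0.15 for 1500015O10Rik.

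Summed over these 6 genes, the list had 2157, 2351, 2275 and 2574 normalised counts in WT_CSPG libraries A to D and 2129, 1979, 1934 and 1983 in KO_CSPG libraries A to D. Library D was highest and, unlike for Ttr, library A was lowest in WT_CSPG. Igfbp2, an abundant growth factor binding protein also made by astrocytes, holds most of this sum, at 1460 ± 97.0 (SD, n = 4) in WT_CSPG.

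Markers of other cell types moved with the same libraries in part, and their part in the results was not tested. Of 16 listed genes of leptomeninges and fibroblasts, 5 were in the table, and Dcn, Lum, Ogn, Foxc1 and Foxd1 had no row. The sum of the 4 besides Ptgds was 616, 809, 342 and 741 normalised counts in WT_CSPG libraries A to D and 700, 1086, 442 and 720 in KO_CSPG libraries A to D. It was lowest in C in both groups, as Ttr was, but highest in B, not in D or A. This pattern was that of Col1a1, Col1a2 and Col3a1. Igfbp4, the most abundant of the 4, differed, with 251, 342, 274 and 367 in WT_CSPG libraries A to D. In KO_CSPG libraries A to D it had 300, 311, 340 and 314, so it was highest in C there. Col3a1, a fibrillar collagen, had 113, 122, 8.73 and 96.8 in WT_CSPG and between 23.5 (library C) and 158 (library B) in KO_CSPG. After Ttr, the widest spread around the group means in the table was that of Col3a1 (SD 1.51 on the log2 scale), Col1a1 (1.25) and Col1a2 (1.15). Of the 7 listed genes of the oligodendrocyte lineage, all were in the table. Their sums were 1038, 1346, 1061 and 1343 in WT_CSPG libraries A to D, lowest in A and not in C. In KO_CSPG they were 1818, 1782, 1652 and 1657, in the same order as Ttr. In WT_CSPG, library C was lowest for 3 of the 7 and library D highest for 3, against 23.6% and 24.8% of all genes. Among them, Sox10, a transcription factor of that lineage, had r = 0.93 to Ttr, with 52.2, 63.9, 23.3 and 70.3 in WT_CSPG libraries A to D. Of 12 listed genes of ependyma and multiciliated cells, 3 were in the table, and their sum ran the other way in WT_CSPG, at 563 in library C and 448 in library D. Foxj1, the master regulator of motile cilia, had r = -0.76 to Ttr.

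The other lists are given by their sums, which their most abundant genes dominate. Without Ttr, the sum of the cortical hem list (6 genes in the table) ran from 1058 to 1134 in WT_CSPG and from 964 to 1155 in KO_CSPG, and that of 5 Cajal-Retzius genes from 3217 to 3841 and from 3631 to 4225. Ndnf, a secreted protein of Cajal-Retzius neurons among these 5, had 98.2, 178, 109 and 251 normalised counts in WT_CSPG libraries A to D, with D highest and A lowest, and an r of 0.81 to Ttr. Library D was the highest WT_CSPG library for 4 of the 5 Cajal-Retzius genes and for 7 of 10 interneuron genes, as it was for 24.8% of all genes. The sum of 10 genes of interneurons, without Calb1, ran from 6653 to 7966 in WT_CSPG and from 7421 to 8500 in KO_CSPG. Microglial genes (4 of 8 in the table) summed to between 1094 and 1229 in WT_CSPG and between 1138 and 1353 in KO_CSPG. Mural cell genes (4 of 6) summed to between 398 and 515 in WT_CSPG and between 516 and 644 in KO_CSPG. Of 7 endothelial genes only Kdr was in the table, between 47.5 and 82.5 in WT_CSPG and between 36.8 and 54.1 in KO_CSPG.

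**Figure D4:**
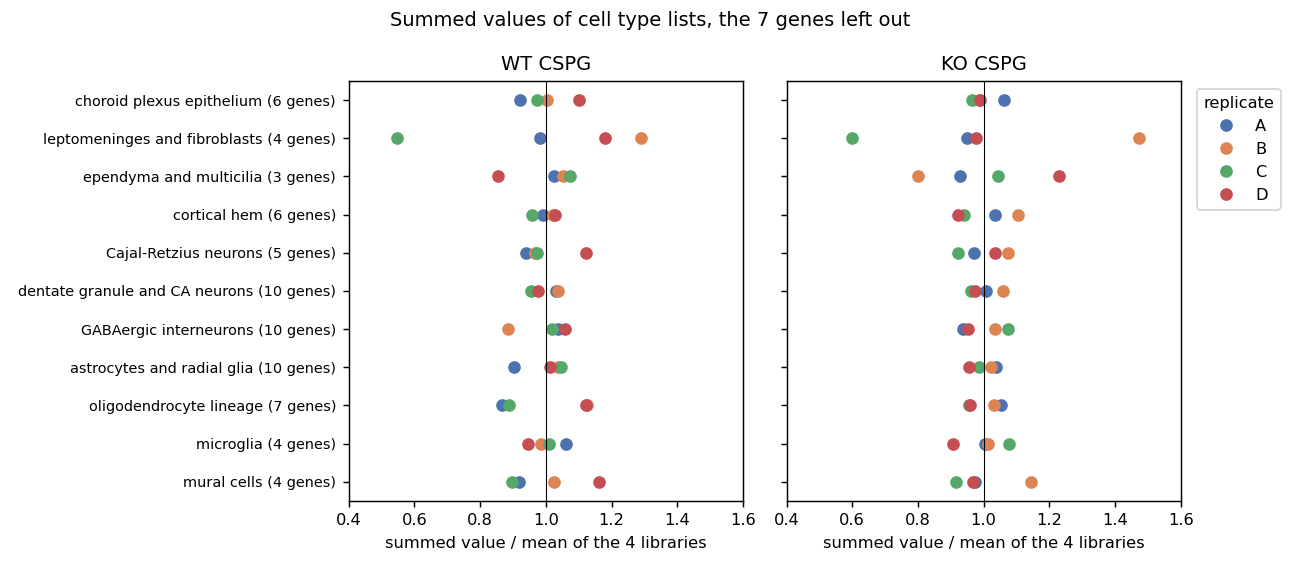
Summed normalised counts of each cell type list, with the 7 genes left out, divided by the mean of the 4 libraries of the group (linear axis, so 1 is the group mean), coloured by replicate, with the number of genes in the table beside each name. The list of leptomeninges and fibroblasts has the widest range in both groups, from 342 to 809 normalised counts in WT_CSPG, with C lowest and B highest in both.

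The comparison of the genotypes asks whether loss of Fibcd1 went with another level of these genes on CSPGs. In limma, with Benjamini-Hochberg adjustment over 12012 genes, 0 of the 7 genes had an adjusted p under 0.05, and 2.88% of all genes had (346 genes, 131 higher and 215 lower in KO_CSPG). With upper-quartile scaling in place of the deposited one, 360 genes passed, 182 higher and 178 lower. At an unadjusted p under 0.05 the count was also 0 of 7, against 16.2% of all genes, and the groups overlapped for all 7, while they did not overlap for 9.22% of all genes. The p-values measure the spread between these libraries, which the study describes as separate preparations of cells.

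Ttr had 1206 ± 1597 normalised counts (SD, n = 4) in WT_CSPG and 96.2 ± 109 in KO_CSPG. Its log2 fold change of KO_CSPG over WT_CSPG, on the log2(value + 1) scale, was -2.95 with a 95% interval of -7.99 to 2.09 (adjusted p = 0.575, limma). This interval includes 0. Leaving out 1 library at a time moved the value between -4.54 and -1.83. It lay farthest from 0 without WT_CSPG library C (95% interval -8.62 to -0.47, adjusted p = 0.310 in limma), and nearest to 0 without WT_CSPG library D. Without the robust prior its interval was -5.40 to -0.51 (adjusted p = 0.199 in limma). The sign was negative in each of the 16 alternatives run for Ttr.

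For the 6 other genes the intervals were narrower. Enpp2 had 228 ± 113 in WT_CSPG and 192 ± 36.4 in KO_CSPG (SD, n = 4), a log2 fold change of -0.13 (95% interval -1.04 to 0.78, adjusted p = 0.912 in limma). Sostdc1 had 70.4 ± 27.7 and 45.9 ± 18.6, a log2 fold change of -0.58 (95% interval -1.65 to 0.48, adjusted p = 0.605). The interval of Sostdc1 was wider than that of Enpp2. Trpm3 had a log2 fold change of -0.21 (95% interval -1.09 to 0.66, adjusted p = 0.845), and Car12 one of -0.08 (95% interval -0.96 to 0.79, adjusted p = 0.945). Ptgds was the only one with a higher mean in KO_CSPG, at 47.0 ± 9.81 against 42.2 ± 21.0, with a log2 fold change of 0.25 (95% interval -0.39 to 0.90, adjusted p = 0.755). Calb1 had a log2 fold change of -0.03 (95% interval -0.73 to 0.66, adjusted p = 0.974). The direction for Enpp2, Trpm3, Car12 and Calb1 turned to higher in KO_CSPG when WT_CSPG library D was left out, at 0.16, 0.01, 0.27 and 0.32. No adjusted p of the 7 genes passed 0.05 in any of the fits, and the lowest was 0.163, for Ptgds without WT_CSPG library D.

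**Figure D5:**
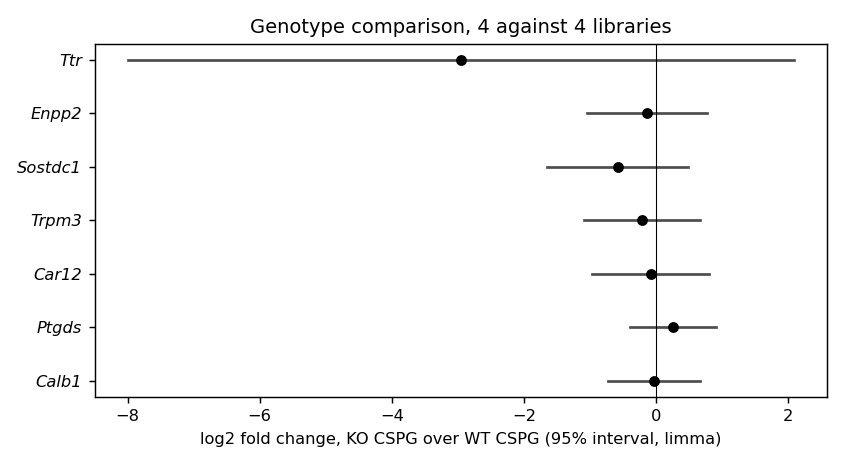
Log2 fold change of KO_CSPG over WT_CSPG on the log2(value + 1) scale (points) with 95% intervals from limma (lines) for the 7 genes, 4 libraries a group. All 7 intervals include 0, and that of Ttr, from -7.99 to 2.09, is the widest.

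The pathways around the 7 genes were read from lists that leave the genes themselves out of the counts below. For Ttr, 12 other genes of thyroid hormone and retinol carriage and response were in the table, with a median log2 fold change of -0.01, and the calls in this list are not reported here. For Enpp2, 11 other genes of lysophosphatidic acid signalling and breakdown were in the table, 1 higher in KO_CSPG and 10 not passing (1.09% of all genes were higher and 1.79% lower), with a median of 0.01. The 1 was Plppr5, a phospholipid phosphatase-related protein, at 0.20 (adjusted p = 0.0387, limma). The lysophosphatidic acid receptor genes Lpar1, Lpar2 and Lpar4 had log2 fold changes of -0.05, -0.18 and -0.27, and none passed.

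For Sostdc1, 17 other BMP and Wnt antagonists and co-receptors were in the table, with a median of 0.07, and the calls in this list are not reported here either. For Calb1, 12 other calcium-binding proteins were in the table. Of these, 1 was higher in KO_CSPG, Ncald (0.20, adjusted p = 0.00392 in limma), and 11 did not pass (1.09% of all genes were higher). Of 3 other TRPM channels, 12 other carbonic anhydrases and bicarbonate carriers, and 5 other genes around prostaglandin D2, 0 passed the test in limma, against 2.88% of all genes. In these lists 1, 3 and 2 genes had an unadjusted p under 0.05, against 16.2% of all genes.

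Among the cell type lists, Igfbp2 was lower in KO_CSPG (log2 fold change -0.19, adjusted p = 0.0120, limma) and was the only one of the 11 choroid plexus genes to pass. Of the 6 choroid plexus genes outside the set, 4 had an unadjusted p under 0.05 in limma, counted in both directions, against 16.2% of all genes. The median log2 fold change of these 6 was -0.40. Their directions differed: the mean of Cab39l was higher in KO_CSPG, at 286 against 254 in WT_CSPG, and the means of the others were lower there. Msx1, a homeobox gene of the cortical hem and choroid plexus field, was lower in KO_CSPG, at -0.51 (adjusted p = 0.0480), and had an r of 0.82 to Ttr. The hem list as a whole did not follow Ttr in WT_CSPG. Of its 6 genes besides Ttr, 2 were lowest in library C and 1 was highest in library D. Lmx1a, for 1, had 46.0, 50.9, 53.3 and 53.0 normalised counts in WT_CSPG libraries A to D. Olig1 and Olig2, 2 of the 7 listed genes of the oligodendrocyte lineage, passed the test and were higher in KO_CSPG, at 0.59 and 0.79 (1.09% of all genes were higher). Sox10 had a log2 fold change of 0.17 (adjusted p = 0.863, limma). For cultures without CSPGs, the paper names Olig2 among genes whose genotype difference may stem from unequal numbers of glia. It then compared only cultures of the same genotype. Whether glia numbers bear on the values here was not tested. In the list of dentate granule and CA neurons without Calb1, 3 of 10 genes were higher in KO_CSPG and 3 lower, the targeted Fibcd1 among the lower. Over all genes the shares were 1.09% higher and 1.79% lower. Ace did not pass (log2 fold change -0.61, adjusted p = 0.150), although its KO_CSPG values, 52.1 to 68.8, all lay under its WT_CSPG values.

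On GRCm38, the build of the table's coordinates, the genes lie on separate chromosomes. Ttr is on chromosome 18. Enpp2 is on the minus strand of chromosome 15, from 54838898 to 54920146, and Sostdc1 on the plus strand of chromosome 12, from 36314169 to 36318452. Trpm3 spans 22139119 to 22989884 on the plus strand of chromosome 19, and Car12 66713686 to 66766845 on the plus strand of chromosome 9. Ptgds lies on the minus strand of chromosome 2, from 25466709 to 25470046, and Calb1 on the plus strand of chromosome 4, from 15881264 to 15908064. Chromosome 2 also carries the targeted gene Fibcd1, and whether this position bears on the values of Ptgds was not tested. All 7 are protein-coding, and each has 1 value per library for the whole gene, so transcripts and start sites cannot be told apart.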

How the data were processed

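The deposited table holds 1 column of normalised counts per library for 8 of the 18 labelled libraries, and 0 per-sample columns were left unused. The authors sequenced poly-A RNA as single reads, had them aligned at a facility and used DESeq2; the submitters' processing notes name mm10, and the aligner and counting program are not given in the sources used here. The authors deposited these values as a signal, reads per gene divided by a size factor, and every value was a whole multiple of 1 step per library, which gave the reads. The table also holds the authors' own comparison (fold changes, standard errors, Wald statistics, p-values and a gene call), which was not used.

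Values were analysed as log2(value + 1), with a pseudocount of 1, in limma 3.58.1 (R 4.3.3) with trended and robust prior variances and Benjamini-Hochberg adjustment over 12012 genes. Genes on X and Y and pseudogenes were kept. Spread and correlations were computed on the same scale, the latter after removing group means. Intervals for a ratio of 2 libraries are exact binomial intervals at 95% and condition on the summed reads of the pair. They do not allow for the choice of the highest and the lowest library. Depth was similar in all libraries, so precision depends mainly on a gene's level. The fit and the spread measures were tested on simulated data.

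The genes and all gene lists were chosen with earlier results of these data known. Named genes are the 7 genes, Fibcd1, the 10 genes most like and the 5 least like Ttr, the 10 with the widest spread, the 3 most like each other gene, and genes of the lists by mean level or call. Alternatives were other pseudocounts, low-value filters, scaling, prior variances, the replicate letter as a block, and leaving out libraries. The sources do not say whether libraries of the same letter belong together. Correlations across genes between the groups' deviations were -0.07, 0.10, 0.27 and -0.01 for A to D. These values do not settle whether the letters pair the libraries. The results of a few genes of the pathway lists are not reported here.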

Additional observations from a re-analysis of the deposited data

Results flagged for a closer look

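In 34 groups of 4 libraries (the 7 genes, Fibcd1 and other choroid plexus and collagen genes in each group), 3 held a library whose gap to the rest exceeded Dixon's 95% value. Chance alone would mark 1.70 of 34 independent groups, but these groups share libraries and include genes chosen by their spread, so the count is a description and no test. Fibcd1 was 182 normalised counts in WT_CSPG library D, against 54.3 to 70.4 in libraries A to C. Ace, angiotensin-converting enzyme, was 159 in the same library, against 75.2 to 84.5 in the other WT_CSPG libraries. The gene 1500015O10Rik was 338 in WT_CSPG library B, against 300.9 to 302.6 in the others.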

How the results depend on the processing

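The count of 346 genes that differed between the genotypes stayed between 342 and 360 with another pseudocount, filter, scaling or without the robust prior. It was 80 with no trend of the prior variance. With the replicate block it was 429, of which 327 were shared; the block changed no call among the 7 genes. Leaving out 1 library gave between 186 (without KO_CSPG library A) and 576 genes (without WT_CSPG library D); without WT_CSPG library A it was 226, without WT_CSPG library C 202 and without KO_CSPG library C 204. Without both WT_CSPG libraries C and D, an alternative chosen after seeing the data, it was 331. None of the fits put 1 of the 7 genes past the threshold, and 6 of their 121 fits of single genes had an unadjusted p under 0.05 (Ttr without the robust prior and without WT_CSPG library C, Sostdc1 and Trpm3 without WT_CSPG library C, Sostdc1 without WT_CSPG libraries C and D, and Ptgds without WT_CSPG library D). With 1 library left out, the log2 fold change ran from -0.40 to 0.16 for Enpp2, -0.93 to -0.33 for Sostdc1, -0.50 to 0.01 for Trpm3, -0.29 to 0.27 for Car12, 0.01 to 0.54 for Ptgds and -0.24 to 0.32 for Calb1. Its sign turned without WT_CSPG library D for Enpp2 (0.16), Trpm3 (0.010), Car12 (0.27) and Calb1 (0.32), without KO_CSPG library C for Car12 (0.04) and without KO_CSPG library B for Calb1 (0.07). It also turned without WT_CSPG libraries C and D together for Car12 (0.14) and Calb1 (0.30). Why these signs turned was not tested beyond the library left out.

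The median SD of the 7 genes, 0.71 in WT_CSPG and 0.28 in KO_CSPG, kept its size under every scaling and pseudocount tried (0.66 to 0.73 and 0.25 to 0.28), and with 1 library left out it ran from 0.50 to 0.85 and from 0.26 to 0.32. The median r of the 6 other genes to Ttr was 0.66, and 0.51 to 0.77 with 1 library left out. A filter on a mean of at least 100 removes Sostdc1, Car12, Ptgds and Calb1, and one on at least 10 in every library removes Ttr. TMM scaling, edgeR and DESeq2 were planned and not run: count models were kept for values deposited as counts, although reads could be computed from the deposited values. Depth limits the lowest values most: Ttr had 5 reads in KO_CSPG library C.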

Other observations

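The genes whose pattern over the 8 libraries was most like that of the other 6 genes differed from gene to gene. For Enpp2 they were Vat1l (r = 0.99), Adamts2 (r = 0.97) and Syndig1l (r = 0.96), and for Car12 Zfp945 (r = 0.99), Zbtb16 (r = 0.98) and Ptprt (r = 0.98). For Sostdc1 they were Pacsin2 (r = 0.99), Ptprr (r = 0.97) and Rab12 (r = 0.96), and for Trpm3 Zfp948 (r = 0.98), Kansl1l (r = 0.98) and Shank1 (r = 0.97). For Ptgds they were Rap1gds1 (r = 0.99), Ldah (r = 0.98) and Isoc2a (r = 0.98), and for Calb1 Lsm3 (r = 0.98), Rasgef1c (r = 0.98) and Ddit4 (r = 0.97). Adamts2, a protease that trims fibrillar collagens, was the only gene named for both Ttr and Enpp2.

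The 10 genes with the widest spread around the group means were Ttr, Col3a1, Col1a1, Col1a2, Fibcd1, Igf2, Sostdc1, Sulf1, Fam107a and Nhsl2, in this order. Car12 ranked 12, Calb1 13, Enpp2 15, Trpm3 17 and Ptgds 18 of 12012. Fibcd1 was highest in WT_CSPG library D, as 6 of the 7 genes were, but its r to Ttr over the 8 libraries was -0.10, and its highest r to the 7 genes was 0.67, with Calb1. Pdgfra, a receptor of oligodendrocyte precursors and of meningeal cells, had 126, 260, 109 and 306 normalised counts in WT_CSPG libraries A to D. Libraries B and D were thus high and A and C low, as for Trpm3 in WT_CSPG. In KO_CSPG libraries A to D Pdgfra had 385, 439, 314 and 364. There it was highest in B and lowest in C, while Trpm3 was highest in D and lowest in A.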
